A study of Saccharomyces cerevisiae with 30 samples.

Results

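The subject is the set of 4 Break-seq libraries, of 30 samples in the series, in which cells depleted of both INO80 and Mot1 are set against cells depleted of INO80 alone, all under hydroxyurea (HU). Members were chosen by the labels: the genotype INO80-FRB Mot1-FRB with 100 mM HU (2 libraries) and the genotype INO80-FRB with 100 mM HU (2 libraries). All peaks of the 4 lists were merged into 427 regions. A region counted as gained when both double-depletion libraries and neither INO80 library had a peak there, as lost in the reverse case, and as shared when all 4 libraries had one. By this rule 1 region was gained, 87 were lost and 108 were shared, which is 0.234%, 20.4% and 25.3% of the 427 regions, and these counts are a description of the rule, with no test.

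The cells were budding yeast, Saccharomyces cerevisiae, in log phase in rich medium (YPD) at 30 °C. All 4 libraries share the anchor-away background, in which a protein fused to FRB leaves the nucleus once rapamycin ties it to an anchor protein, and all had 3 h of rapamycin before harvest. The double-depletion strain is therefore depleted of nuclear INO80 as well as nuclear Mot1, and the INO80 strain has untagged Mot1, as far as the genotypes say; how complete the depletion was is not given. The labels do not say whether a strain is 1 clone or whether the replicates are separate cultures, and p-values then measure a spread between libraries that may be technical. The same strains without HU (2 libraries each) are used beside the comparison.

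INO80 is the ATPase of a chromatin remodelling complex that slides nucleosomes and acts at promoters and at stalled replication forks. Mot1 is an ATPase of the same wider family that removes the TATA-binding protein from DNA and so moves it between promoters. HU inhibits ribonucleotide reductase, which lowers deoxynucleotide pools and slows or stalls replication forks, and Break-seq labels the broken DNA ends in agarose-embedded cells before sequencing, so that a peak is a place where labelled ends pile up. Ty retrotransposons and the Y′ elements of chromosome ends, which carry the YRF1 helicase genes, are repeated sequences of this genome, and how reads that match several copies were placed is not given in the sources used here. Values at single copies are uncertain for that reason.

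Read totals are unknown, since the deposited lists hold peaks alone. As a stand-in, the reads behind each peak (pileup) and the local background were worked out from the peak's fold and −log10 p as deposited. The median background under the peaks was 21.7 and 11.2 reads in the double-depletion libraries with HU and 21.5 and 23.1 reads in the INO80 libraries with HU, and the median pileup was 51 and 33 reads against 57 and 58 reads. The second double-depletion library was the lowest of the 4 in both, and it also had the shortest list. The part of depth in the results was not tested.

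The double depletion had fewer break peaks under HU. Its lists held 222 and 180 peaks, against 358 and 347 peaks with INO80 depletion alone, with means of 201 ± 29.7 and 352 ± 7.78 (SD, n = 2 each). Both double-depletion lists were shorter than both INO80 lists. The difference of the mean log2 number was -0.818 (exact two-sided permutation test over 6 arrangements, p = 0.333, which is the smallest p that 2 against 2 can give). The peaks were also narrower, with a median width of 253 and 243 bp against 354 and 335 bp, a difference of -96.2 bp (exact permutation p = 0.333), or -200 bp with 180 peaks in each list. Together the peaks covered 83.9 and 60.8 kb in the double depletion and 174 and 165 kb with INO80 depletion alone. The median fold of a peak over its local background, the authors' own value within each list, was 2.35 and 2.74 in the double depletion and 2.42 and 2.37 with INO80 depletion alone.

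**Figure D1:**
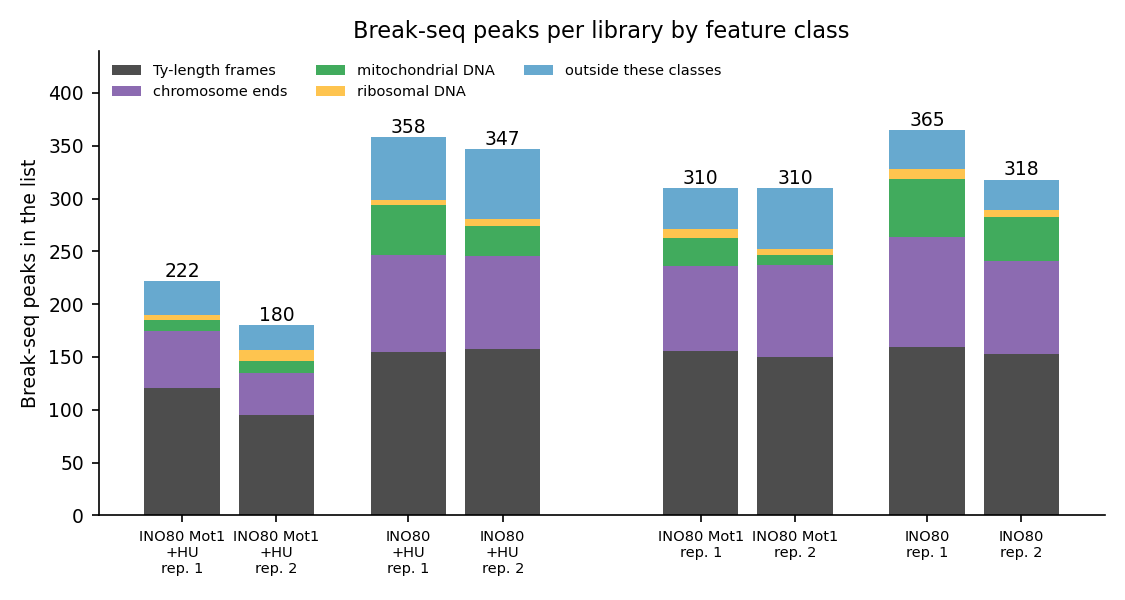
Number of Break-seq peaks in each list (vertical axis), split by feature class, for the INO80 Mot1 and INO80 libraries with HU (left 4 bars) and without HU (right 4 bars); each peak is counted in 1 class. The 222 and 180 peaks of the double depletion with HU stand below the 358 and 347 of INO80 with HU, and the classes keep the same order of size for the 2 largest.

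Lost regions were found in 4 of 5 feature classes. Of the 87 lost regions 35 lay in Ty-length frames, 25 in the last 10 kb of chromosomes, 15 on mitochondrial DNA, 0 in the ribosomal DNA and 12 outside these 4 repeat classes. The regions outside the repeat classes are not all unique sequence: they still hold the YRF1-4 gene, the CUP1 tandem, near-identical transporter genes and long reading frames without a gene name that fall outside the length range of the Ty-length class. As a share of all regions of each class, 19.3% of the 181 Ty regions, 25.5% of the 98 end regions, 31.9% of the 47 mitochondrial regions and 12.9% of the 93 regions outside the repeat classes were lost, beside 20.4% over all 427. Shared regions made up 28.2%, 31.6%, 21.3% and 12.9% of the same classes, and 4 of the 8 ribosomal DNA regions were shared. A further 61 regions missed the lost rule by 1 library, with peaks in both INO80 libraries and in 1 double-depletion library, and 7 missed the gained rule in the same way. The lost count was 155 without INO80 replicate 1 and 166 without INO80 replicate 2, and 129 and 106 without double-depletion replicates 1 and 2. The gained count was 7 and 15 without double-depletion replicates 1 and 2 and 5 without either INO80 replicate. Leaving out a library removes 1 condition of the rule, so these counts tend to rise whatever the data. Another 127 regions had a peak in 1 INO80 library alone and 20 in 1 double-depletion library alone.

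Lost regions were narrower than shared ones and ranked lower in the INO80 lists. Their median width was 360 bp, against 722 bp for shared regions and 347 bp for all regions. A shared region merges peaks of all 4 lists and a lost one those of the INO80 lists alone. A wide region is also likelier to meet a peak of every list, so the width contrast follows in part from the rule. Ranked by the authors' score within each INO80 list, the best peak of a lost region had a median rank of 228 of 358 and 210 of 347, whereas shared regions had median ranks of 66.5 and 77.5. Of the 87 lost regions 17 (19.5%) had a peak among the 180 highest-scoring peaks of both INO80 lists. When each of the 4 lists was held to its 180 highest-scoring peaks, the length of the shortest list, 264 regions remained, of which 10 were gained (3.79%), 20 lost (7.58%) and 79 shared (29.9%). The lost regions then comprised 10 at chromosome ends, 7 in Ty-length frames, 3 outside the repeat classes and 0 on mitochondrial DNA, and the gained ones 8 in Ty-length frames and 2 outside the repeat classes. Lists of different length rank peaks on different scales, so the ranks describe each list and show no change by themselves.

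**Figure D2:**
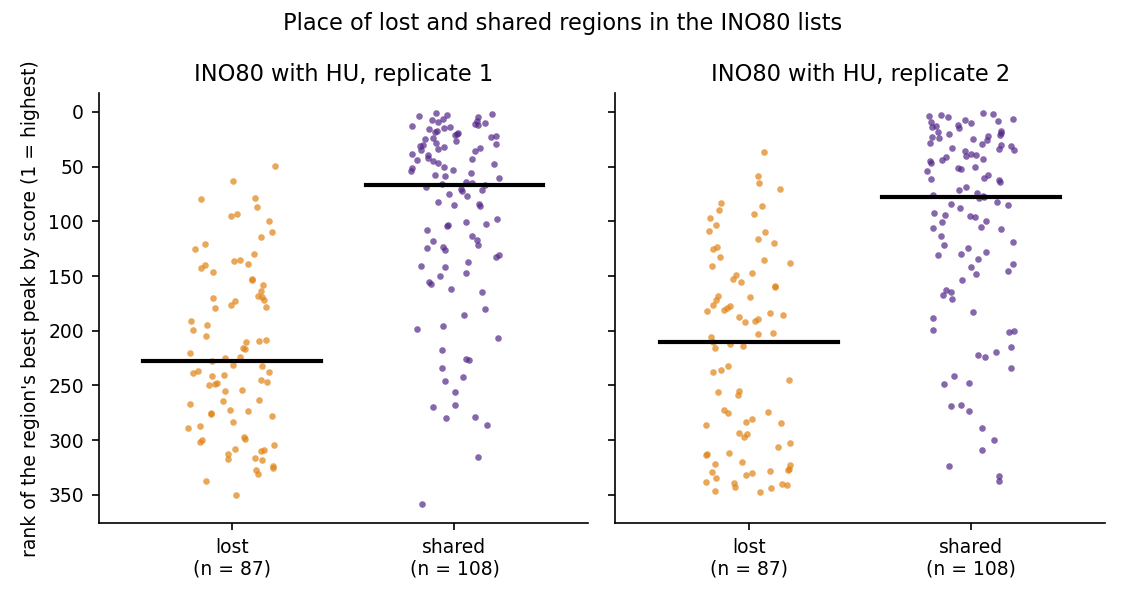
Rank by score of the best peak of each lost and each shared region (vertical axis, 1 at the top) in the first and the second INO80 list with HU; each point is a region and the black line is the median. Lost regions have medians of 228 and 210, and shared regions 66.5 and 77.5.

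Many lost regions had a double-depletion peak nearby. The median distance from a lost region to the nearest peak of either double-depletion list was 636 bp, and 51 of 87 (58.6%) had one within 1 kb, beside 45 of the 127 regions (35.4%) with a peak in 1 INO80 library alone and 72.4% of all 427 regions, which include those that hold such a peak themselves. In Ty-length frames 25 of 35 lost regions had such a neighbour and at chromosome ends 19 of 25, whereas on mitochondrial DNA it was 3 of 15 and outside the repeat classes 4 of 12. The median distance was 441 bp in Ty-length frames, 550 bp at chromosome ends, 14127 bp on mitochondrial DNA and 37984 bp outside the repeat classes. Inside shared regions the double-depletion peaks covered 63.9 and 53.1 kb, against 89.7 and 88.5 kb covered by INO80 peaks.

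The gained region spanned XII:1067251-1067506 (256 bp, build sacCer3) and overlapped YLR464W and YRF1-4, one of the Y′ helicase genes. Its peak had a fold of 2.61 over background in the first and 2.75 in the second double-depletion library (rank 78 and 120 in their lists), with 50 and 26 reads at the summit, and no peak in either INO80 library with HU. Both INO80 lists with HU had 2 peaks elsewhere in YRF1-4, which covered 6.36% and 10.8% of the gene, whereas the double-depletion peaks covered 6.17% and 4.68% of it. The region also had a peak in both double-depletion libraries without HU and in both WT libraries without HU. The regions that missed this rule by 1 INO80 library included FLO1, a cell-wall flocculin with internal repeats, at I:206319-206534, where the fold was 3.20 and 3.26 in the double-depletion libraries and 3.26 in the second INO80 library. Of the other 6, 5 lay in Ty-length frames and 1 near the left end of chromosome V at V:6019-6264.

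Outside the repeat classes the double depletion had 32 and 23 peaks, against 59 and 66 with INO80 depletion alone, and the groups did not overlap. Of these peaks 20 and 17, against 34 and 28, lay at or within 500 bp of YRF1 genes, reading frames without a gene name of at least 1000 bp, or the CUP1, HXT6, HXT7, ENA and FLO genes, and without them 12 and 6 peaks remained, against 25 and 38; this narrower class was chosen after seeing the data. The 12 lost regions were few enough to give each, and 5 of them lay away from those features. At HXT7, which encodes a high-affinity glucose transporter, the INO80 libraries had peaks of fold 2.47 and 2.25 inside the gene (IV:1155282-1155739), and both WT libraries with HU had a peak there too. The nearest double-depletion peak lay 53812 bp away. At SGN1, which encodes an RNA-binding protein, the folds were 2.54 and 2.81 (IX:355608-356243), again with a peak in both WT libraries with HU and in none of the libraries without HU. A region of fold 2.86 and 2.74 lay 42 bp from NOP1, the gene of the nucleolar rRNA methyltransferase fibrillarin, on the promoter side (IV:426985-427321). A region of fold 2.23 in both libraries lay 181 bp from TPO2, which encodes a polyamine transporter, also within a promoter (VII:765788-766045).

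Another 3 lost regions outside the repeat classes had a tRNA gene as the nearest gene. The region at III:169236-169424 lay 863 bp from the tRNA gene YNCC0010C and had folds of 3.29 and 3.34, the largest of the 12 in both libraries. The region at XI:202692-202856, 142 bp from YNCK0007W, had folds of 3.07 and 3.09. The region at XIV:561568-561976, 802 bp from YNCN0010C, had folds of 2.54 and 2.32 and a peak in both WT libraries with HU. All 3 lay at sites of Orc5, part of the complex that binds replication origins, as did the regions at SGN1 and at YJL113W (X:203053-203732, folds 2.28 and 2.93), so 5 of the 12 (41.7%) did, beside 5 of the 12 shared regions and 34 of all 93 regions outside the repeat classes (36.6%). The regions near NOP1 and near YNCK0007W had no peak in any of the 12 other Break-seq libraries of the series, of which the 4 of Mot1 depletion alone have lists of 5 to 40 peaks. YJL113W is a long reading frame without a gene name (4648 bp). The other 4 also lay in or beside such frames, 2 in YAR009C (I:161471-161891 with folds of 2.22 and 1.94, and I:162558-162891 with folds of 2.05 and 2.04), 1 in YDR261C-D (IV:991202-991918, folds 2.32 and 2.26) and 1 beside YIL082W-A (IX:205302-205521, folds 2.91 and 2.92).

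Just short of the lost rule outside the repeat classes stood 8 regions with both INO80 libraries and 1 double-depletion library. In 7 of them the remaining peak was in the first double-depletion library, which had the longer list. They included MNN4, a gene of cell-wall mannan phosphorylation (XI:64048-64402), with a fold of 2.08 in that library and 3.18 and 2.46 in the INO80 libraries, and a region 214 bp from the tRNA gene SUF8 (VIII:389210-389404), with a fold of 3.33 in that library and 4.24 and 4.03 in the INO80 libraries. The other 5 of these 7 lay in YAR009C, YDR261C-D (2 regions), YGR109W-B and at YIL060W and YIL059C. The eighth lay in YAR010C, with a fold of 2.12 in the second double-depletion library.

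The highest-ranking region outside the repeat classes was shared. The region at YLR162W and RRT15 beside the ribosomal DNA (XII:489699-490466) ranked 1 in all 4 lists, with folds of 8.36 and 12.6 in the double depletion and 11.6 and 10.2 with INO80 depletion alone. Its pileup was 264 and 228 reads, against 299 and 316 reads. The highest pileups of these lists were 282 and 294 reads, against 316 and 326 reads, and most peaks near them lay on mitochondrial or ribosomal DNA. A 257 bp region at III:151566-151822, 209 bp from the tRNA gene YNCC0009C, ranked 2 and 3 in the double-depletion lists and 3 and 3 in the INO80 lists, with folds of 6.93 and 7.31, against 8.27 and 8.66. At HAP1, which encodes a heme-responsive transcription factor, the folds were 3.73 and 4.70 in the double depletion and 5.62 and 6.35 with INO80 depletion alone (XII:650756-651011). This region lay beside another shared region, in the reading frame YLR256W-A (XII:651213-652367). The tandem copper-resistance locus (VIII:212354-216155) with the metallothionein genes CUP1-1 and CUP1-2 and RSC30, a gene of the RSC remodelling complex, had folds of 2.83 and 3.28, against 3.21 and 2.90. A region 206 bp from the tRNA gene YNCP0008C (XVI:560496-560751) had 3.91 and 5.22, against 6.82 and 4.56. The other 5 of the 10 top shared regions by mean rank lay in YLR035C-A (2 regions), YLR256W-A and YAR009C and beside YMR045C, all without a gene name, with folds from 2.82 to 4.24 in the double depletion and from 2.73 to 6.35 with INO80 depletion alone.

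Ty-length frames, defined as 40 reading frames without a gene name and about as long as the coding sequence of a Ty element (5251 to 5410 bp), held the largest class of peaks. Of these frames 37 and 38 had a peak in the double depletion and 39 and 39 with INO80 depletion alone. The number of peaks in them was 123 and 98, against 157 and 162, and the mean share of a frame covered by peaks was 18.6% and 13.3%, against 36.9% and 37.1%. Summed over both libraries of a group, 31 frames had fewer peaks in the double depletion, 5 as many and 4 more. YHL009W-B had 0 and 0 peaks in the double depletion and 2 and 4 with INO80 depletion alone, whereas YDR034C-D had 5 and 4, against 2 and 4. Among nuclear peaks, Ty-length frames took a larger share in the double depletion, 58.0% in each library, against 50.5% and 50.8% (difference 7.37 percentage points, exact permutation p = 0.333, 0.524 after Benjamini-Hochberg adjustment over 11 feature classes). As a share of covered base pairs the difference was -0.828 points.

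Along the frames the difference was seen in each of 3 equal parts. Read 5′ to 3′, peaks covered 9.56% and 3.70% of the 5′ part in the double depletion, against 24.9% and 29.6% with INO80 depletion alone. In the middle part they covered 14.6% and 8.89%, against 27.3% and 26.1%. In the 3′ part they covered 31.5% and 27.3%, against 58.4% and 55.4%. No part had overlapping groups (exact permutation p = 0.333 each). With 180 peaks in each list the 3′ part still stood apart, at 29.5% and 27.3% against 50.0% and 45.5%, as did the 5′ part at 5.54% and 3.70% against 14.6% and 15.3%, whereas the middle part overlapped, at 13.2% and 8.89% against 13.0% and 13.5%. Of the 35 lost Ty regions 13 had their midpoint in the 5′ part, 10 in the middle and 11 in the 3′ part, with 1 outside the frame, whereas of the 51 shared Ty regions 6, 14 and 31 did. The 3′ part thus held most of the shared Ty regions.

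**Figure D3:**
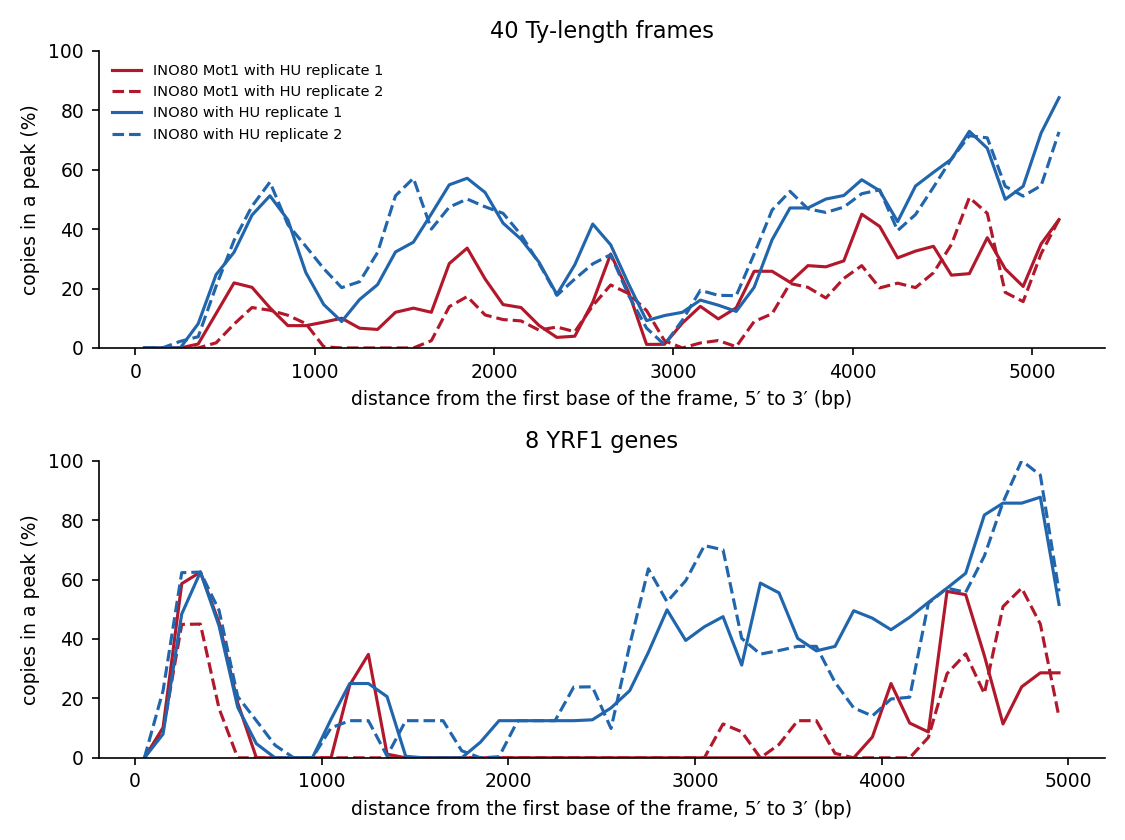
Share of copies in a peak (vertical axis, percent) along the 40 Ty-length frames (top) and the 8 YRF1 genes (bottom), by distance in bp from the first base of the frame, for INO80 Mot1 with HU (red) and INO80 with HU (blue); solid and dashed lines are replicates 1 and 2. The red lines run below the blue ones over most of the Ty frames and over the middle of YRF1, where the double depletion covered 0.00% and 2.74% of the middle part, and they meet the blue lines near the start of YRF1.

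At chromosome ends the double depletion had 54 and 40 peaks, against 92 and 88 with INO80 depletion alone, and peaks stood at 17 and 17 of the 32 ends, against 18 and 17. The ends with a peak were thus about as many, with fewer peaks at each. As a share of nuclear peaks the ends held 25.5% and 23.7%, against 29.6% and 27.6% (difference -4.01 points, exact permutation p = 0.333, adjusted 0.524), and the difference was -8.62 points with 180 peaks in each list. The YRF1 genes encode the helicases of Y′ elements, and all 8 had a peak in all 4 libraries. They held 22 and 14 peaks in the double depletion, against 36 and 37, over 12.0% and 7.68% of their length, against 33.4% and 31.9%. For YRF1-2 the covered share was 6.72% and 3.88%, against 47.2% and 48.5%, and for YRF1-5 it was 9.85% and 7.81%, against 21.7% and 20.0%. In each of the 8 genes both double-depletion values lay below both INO80 values.

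Within the YRF1 genes the strains lay closest in the 5′ part and farthest apart in the middle and 3′ parts. The 5′ part was covered to 14.4% and 6.54% in the double depletion and 14.7% and 16.8% with INO80 depletion alone. The middle part was covered to 0.00% and 2.74%, against 31.7% and 34.4%. The 3′ part was covered to 21.5% and 13.7%, against 53.8% and 44.4%. All 3 parts had groups that did not overlap (exact permutation p = 0.333 each). With 180 peaks in each list, the middle part had 0.00% and 2.74%, against 11.9% and 8.16%, and the 5′ part overlapped, at 14.4% and 6.54% against 4.73% and 8.48%. Lost regions wide enough to be named at the ends included YRF1-2 (V:574112-574923, folds 3.09 and 2.28), YRF1-3 (VII:1088245-1089049, folds 2.65 and 2.07), YPR204W (XVI:944763-945881, folds 2.60 and 2.24), YHR219W (VIII:560735-561518, folds 3.26 and 3.17) and YML133C (XIII:1023-1724, folds 3.39 and 2.37). Each of these 5 had a double-depletion peak within 1 kb. Shared regions at ends included YRF1-3 near its start (VII:1085025-1085329), with folds of 4.17 and 4.10, against 4.45 and 4.64, and YRF1-7 (XVI:5439-5819), with 4.37 and 4.30, against 3.90 and 4.44.

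Mitochondrial DNA carried 10 and 11 peaks in the double depletion and 47 and 28 with INO80 depletion alone, which is 4.50% and 6.11% of all peaks, against 13.1% and 8.07%. The groups did not overlap (difference -5.29 points, exact permutation p = 0.333, adjusted 0.524), but the INO80 libraries differed widely between themselves. Of 46 mitochondrial genes 4 and 4 had a peak in the double depletion, and 33 and 12 with INO80 depletion alone. The same 4 genes were hit in all 4 libraries. They were ATP6, a subunit of the ATP synthase, RPM1, the RNA of mitochondrial RNase P, and the tRNA genes tP(UGG)Q and tM(CAU)Q2. The lost mitochondrial regions included the 15S rRNA gene (M:7131-8266, folds 1.37 and 1.22), 2 regions of the 21S rRNA gene (M:58013-59334 with 1.26 and 1.19, and M:60708-62257 with 1.25 and 1.19), the second of them over SCEI, the homing endonuclease of its intron, and a region 288 bp from VAR1, a mitochondrial ribosomal protein gene (M:50386-51444, folds 1.43 and 1.22).

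Mitochondrial peaks were low in fold and high in reads. Their median pileup was 281 and 288 reads in the double depletion and 313 and 325 reads with INO80 depletion alone, near the highest pileup of each list, which was 282, 294, 316 and 326 reads in the same order. Of the peaks at 80% or more of that maximum, 13 of 14 and 19 of 19 in the double depletion, and 50 of 51 and 31 of 32 with INO80 depletion alone, lay on mitochondrial or ribosomal DNA. The mitochondrial share of peaks differed by -2.76 points without INO80 replicate 1, by -1.93 points as covered base pairs and by -0.556 points with 180 peaks in each list, where no mitochondrial region was lost.

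The ribosomal DNA, the tandem array of rRNA genes on chromosome XII, had 5 and 11 peaks in the double depletion and 5 and 7 with INO80 depletion alone. Of its regions 0 were lost and 4 were shared, among them a 1840 bp region over RDN25-1 and ETS2-1 (XII:451505-453344), with folds of 1.62 and 2.18 in the double depletion and 2.04 and 1.95 with INO80 depletion alone. A second shared region over RDN18-2 and RDN5-2 (XII:465228-468859) had 1.43 and 1.83, against 1.99 and 1.94. As a share of nuclear peaks the class held 2.36% and 6.51%, against 1.61% and 2.19% (exact permutation p = 0.333, adjusted 0.524), with Wilson intervals of 1.01 to 5.40% and 3.67 to 11.3%, against 0.689 to 3.71% and 1.07 to 4.46%. These intervals cover counting error alone. The difference of 2.53 points rested on the second double-depletion library, since it was 0.457 points without it and 4.61 points without the first, and it was 6.38 points as a share of covered base pairs.

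The remaining classes are those of replication and transcription. Sites bound by Orc5 (1412 sites from the Orc5 list without rapamycin, with 500 bp on each side) held 9.43% and 10.7% of nuclear peaks in the double depletion, against 15.1% and 15.0% with INO80 depletion alone (difference -5.04 points, exact permutation p = 0.333, adjusted 0.524). That difference was -8.23 points with 180 peaks in each list and -1.01 points as a share of covered base pairs. Outside the repeat classes the same sites held 9 of 32 and 7 of 23 peaks, against 24 of 59 and 23 of 66, with Wilson intervals of 15.6 to 45.4% and 15.6 to 50.9%, against 29.1 to 53.4% and 24.5 to 46.9%. Promoters, the 500 bp before protein-coding genes, held 7.08% and 8.28% of nuclear peaks, against 10.3% and 11.9% (difference -3.42 points, exact permutation p = 0.333, adjusted 0.524), but as a share of covered base pairs the difference was 0.903 points. Outside the repeat classes 8 of 32 and 8 of 23 peaks lay at promoters, against 16 of 59 and 23 of 66, and the groups overlapped.

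No peak of the 4 libraries overlapped a nuclear tRNA gene. Within 500 bp of one lay 7 of 212 and 7 of 169 nuclear peaks in the double depletion, against 20 of 311 and 18 of 319 with INO80 depletion alone, or 3.30% and 4.14% against 6.43% and 5.64% (difference -2.31 points, exact permutation p = 0.333). Peaks of Arp5, a subunit of the INO80 complex, on the 11 chromosomes with such a list, held 64.7 ± 3.27% and 67.6 ± 0.992% (SD, n = 2 each, exact permutation p = 0.667). Gene bodies held 91.3 ± 4.37% and 89.7 ± 1.84% (exact permutation p = 1.00), and the gaps between convergent genes 15.1 ± 1.29% and 15.5 ± 1.52% (exact permutation p = 0.667). In these 3 classes the groups overlapped. Outside the repeat classes, gene bodies held 27 of 32 and 19 of 23 peaks in the double depletion, against 39 of 59 and 38 of 66, or 84.4% and 82.6%, against 66.1% and 57.6%, and both double-depletion shares were the higher (exact permutation p = 0.333). Long unnamed frames count as gene bodies here. At or near these frames and the repeated genes given above lay 20 of 32 and 17 of 23 peaks, against 34 of 59 and 28 of 66. Their part in the gene-body difference was not tested.

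Few genes of any kind overlapped a peak: 194 of 6477 (3.00%) did in at least 1 of the 4 libraries, so a short list with none is near that background. No peak was found in the 12 genes of Mot1, the TATA-binding protein and TFIID, the 14 of the INO80 complex, the 15 of the HU response and ribonucleotide reductase, the 17 of fork repair and recombination, the 20 of replication initiation and the 9 histone genes. The 24 seripauperin genes, the 12 COS genes, the 4 asparaginase genes and 11 glycolytic genes had none either, though the first 3 of these lists are repeated families. In other lists with repeated genes, 8 of 8 YRF1 genes, 2 of 2 CUP1 genes, 2 of 3 sodium pump genes, 2 of 7 hexose transporters and 1 of 5 flocculins had a peak in at least 1 library. Both CUP1 genes had peaks in all 4 libraries, and FLO1 had 1 and 1 peaks in the double depletion and 0 and 2 with INO80 depletion alone. HXT7 had 0 and 0, against 1 and 2, and its near-identical neighbour HXT6 had 0 and 0, against 1 and 0. Of the sodium pump genes, ENA1 had 0 and 0, against 1 and 0, and ENA5 0 and 0, against 0 and 2.

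The libraries without HU were not used by the rule, so the presence of lost and shared regions in them could be compared between the strains. Of the 87 lost regions 54 and 41 had a peak in the double depletion without HU, against 68 and 64 with INO80 depletion alone without HU, or 54.6 ± 10.6% and 75.9 ± 3.25% (SD, n = 2 each, difference -21.3 points, exact permutation p = 0.333). The groups did not overlap, and 62 of 87 (71.3%) had a peak in at least 1 double-depletion library without HU. Of the 108 shared regions 106 and 106 had one, against 106 and 103. By class, 68.0 ± 5.66% of the 25 lost end regions had a peak in the double depletion without HU, against 98.0 ± 2.83%, and 33.3 ± 37.7% of the 15 mitochondrial ones, against 90.0 ± 4.71% (exact permutation p = 0.333 each). Of the 35 lost Ty regions 64.3 ± 10.1% had a peak in the double depletion without HU, against 65.7 ± 4.04%, and the groups overlapped (exact permutation p = 1.00). Of the 12 outside the repeat classes 25.0 ± 11.8% had one, against 41.7 ± 11.8% (exact permutation p = 0.667). In the WT strain with HU 31 and 59 of the 87 had a peak.

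**Figure D4:**
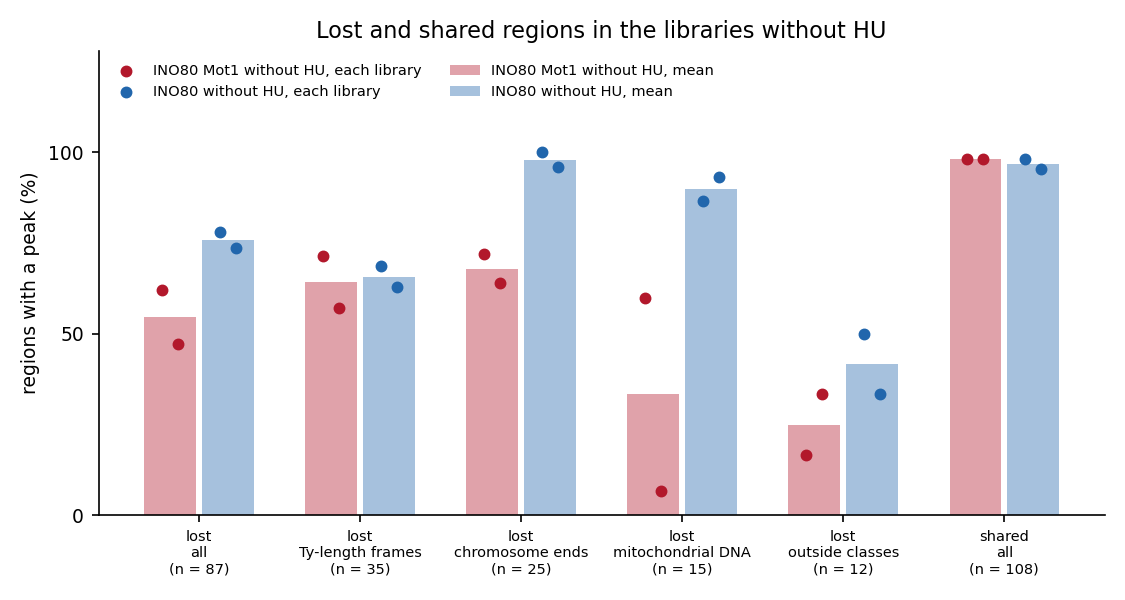
Share of lost regions, in all and by class, and of shared regions (last pair) that had a peak in the libraries without HU (vertical axis, percent); red is INO80 Mot1, blue is INO80, points are the 2 libraries and bars their mean. Lost end regions stand at 68.0% against 98.0%, lost Ty regions at 64.3% against 65.7%, and shared regions at 98.1% against 96.8%.

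The same pair of strains without HU differed less in number. The double depletion without HU had 310 and 310 peaks, against 365 and 318 with INO80 depletion alone, and its merged regions were 9 gained (2.24% of 401), 22 lost (5.49%) and 172 shared (42.9%). The difference in mean log2 number was -0.136 without HU and -0.818 with HU (exact permutation of the HU labels within each strain, 36 arrangements, p = 0.167). This permutation takes HU to have no effect in either strain. Its p is therefore not exact for a difference between the 2 comparisons if HU changes both strains. The same limit holds for the other tests over 36 arrangements below. The lists with and without HU share no library. Of the 87 lost regions 7 (8.05%) overlapped a region lost without HU. Of all 401 regions without HU, 5.49% were lost there, but these were merged from other lists. The 2 shares are thus not on the same set of regions, and the share over all regions with HU was not counted.

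Outside the repeat classes the comparison ran in the opposite direction without HU. The double depletion had 32 and 23 such peaks with HU and 39 and 58 without, whereas INO80 depletion alone had 59 and 66 with HU and 37 and 29 without. The difference was thus -35.0 peaks with HU and 15.5 peaks without HU, and the difference between them was -50.5 peaks (exact permutation p = 0.0556, the smallest that 36 arrangements can give). Without the peaks at long unnamed frames, YRF1 genes and the repeated genes given above, the counts were 12 and 6, against 25 and 38, with HU and 16 and 33, against 13 and 6, without HU, and the difference between the comparisons was -37.5 peaks (exact permutation p = 0.0556). Replicates could differ widely in peaks outside the repeat classes, with 203 and 62 in WT without HU and 133 and 57 in WT with HU. The share of nuclear peaks in Ty-length frames differed by 7.37 points with HU and -0.572 points without HU, and that in promoters, whose direction with HU turned when base pairs were counted, by -3.42 and 1.91 points, each also at the smallest p of 0.0556, which is 0.306 after adjustment over 11 classes. The share of the 3′ part of Ty-length frames in peaks differed by -27.5 points with HU and -4.27 points without HU (exact permutation p = 0.0556). The YRF1 middle part was covered less in the double depletion than with INO80 depletion alone in both cases. Its values without HU were 33.8% and 21.5%, against 52.3% and 43.2%. The strains thus differed by -31.7 points with HU and -20.1 points without HU (exact permutation p = 0.500). Mitochondrial peaks without HU numbered 27 and 10, against 55 and 42, a difference of -30.0 peaks beside -27.0 with HU (exact permutation p = 0.944).

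**Figure D5:**
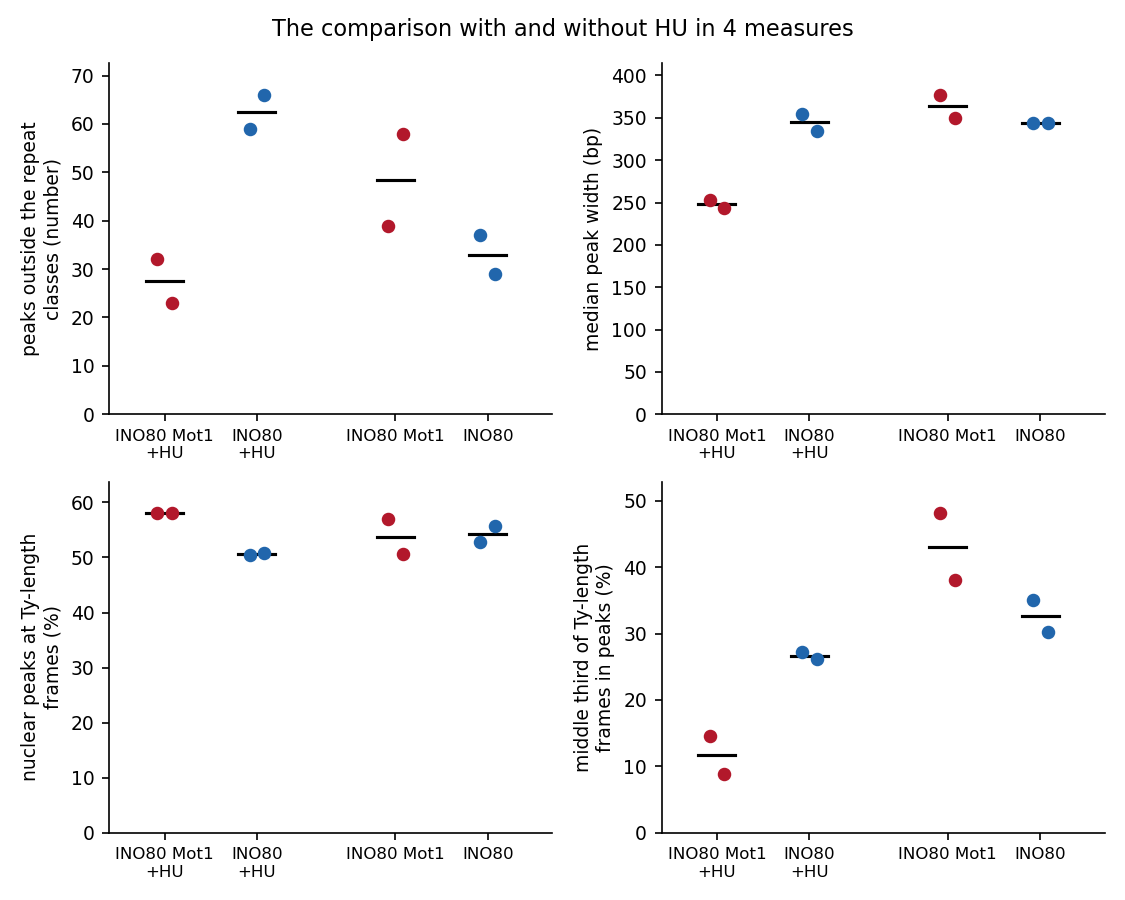
Each library's value (points) and the group mean (line) for 4 measures: peaks outside the repeat classes, median peak width in bp, percent of nuclear peaks at Ty-length frames, and percent of the middle part of Ty-length frames in peaks; INO80 Mot1 is red and INO80 blue, with HU in the left pair and without HU in the right pair of each panel. Peaks outside the repeat classes are 32 and 23 against 59 and 66 with HU, and 39 and 58 against 37 and 29 without HU. All values are from the full lists. With 180 peaks in each list the groups with HU overlapped in the middle part of Ty-length frames.

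The lists resembled each other more within a strain than between strains. The Jaccard index, the base pairs in peaks of both lists over those in peaks of either, was 0.434 between the double-depletion libraries, 0.602 between the INO80 libraries and 0.351 on average between strains (0.300 to 0.402 over 4 pairs). With 180 peaks in each list these became 0.419, 0.593 and 0.420, so that the double-depletion libraries were then no nearer to each other than to the INO80 libraries.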

How the data were processed

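Break-seq peak lists of 4 libraries, 1 per library and not pooled, were analysed, with 12 other Break-seq lists and the Orc5 and Arp5 ChIP-seq lists beside them; 8 NET-seq libraries were not analysed here. Per the submitters' processing notes the tools and builds named are Bowtie2 and sacCer3; no peak caller is given in the sources used here. For each Break-seq peak the authors deposited a score, a fold (ratio) over background, and its p-value and q-value as −log10, and the deposited Orc5 and Arp5 lists were used for other values, the positions of their peaks. These were used to describe or rank peaks within a list. Reads were 75 bp, per the labels.

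Peaks and background were turned into reads under a Poisson model, accepting whole pileups within 0.001 of −log10 p, which 100% of peaks met. Peaks overlapping by at least 1 bp were merged; genes came from RefSeq R64 (6477 genes, the build sacCer3), with strand read from systematic names. Orc5 and Arp5 peaks over 10 kb were left out. Intervals are 95% Wilson intervals. Exact two-sided permutation tests ran over libraries, with Benjamini-Hochberg adjustment over 11 classes; 0.05 was the threshold. The procedures were tested on simulated data. Python 3.11.15, numpy 2.4.6, pandas 2.3.3, scipy 1.17.1 and matplotlib 3.10.9 were used.

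The members, classes and gene lists were chosen with earlier results of these data known. Named were every gained region, every lost region outside the repeat classes, the 10 widest lost regions in repeats, top shared regions by mean rank (10 outside the repeat classes and up to 5 in each repeat class, of which some are shown) and listed genes with a peak. Regions at 1 library from the rule, single Ty frames and single YRF1 genes were named after their values were seen, and the narrower class without other repeated genes and long unnamed frames was also set then. Alternatives were list length, score and q thresholds, merging distance, overlap, repeats, the replicate block and leaving out each library. Replicate numbers do not pair the libraries. No sequence is printed.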

Additional observations from a re-analysis of the deposited data

Results flagged for a closer look

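In the measures below the comparison of the double depletion with INO80 depletion alone ran in opposite directions with and without HU. They were picked for this from all the measures compared, with no overlap between the groups in either case. The number of peaks outside the repeat classes differed by -35.0 with HU and by 15.5 without HU (exact permutation test of the difference, p = 0.0556, the smallest that 36 arrangements can give), or by -22.5 and 15.0 when peaks at other repeated genes and long unnamed frames were left out too (p = 0.0556). WT replicates lay farther apart than -35.0 or 15.5 peaks. They had 203 and 62 peaks outside the repeat classes without HU, and 133 and 57 with HU. The covered share of the middle part of Ty-length frames differed by -15.0 points with HU, at 14.6% and 8.89% against 27.3% and 26.1%, and by 10.4 points without HU, at 48.1% and 38.0% against 35.0% and 30.3% (exact permutation p = 0.333). With 180 peaks in each list with HU that -15.0 became -2.21 points. The groups with HU then overlapped, at 13.2% and 8.89% against 13.0% and 13.5%. The median peak width differed by -96.2 bp with HU, at 253 and 243 bp against 354 and 335 bp, and by 19.2 bp without HU, at 377 and 350 bp against 344 and 344 bp (exact permutation p = 0.222). The part of the covered Ty length that lay in the 3′ part differed by 11.2 points with HU, at 56.6% and 68.4% against 52.8% and 49.9%. Without HU it differed by -3.98 points, at 39.8% and 42.4% against 44.0% and 46.2% (exact permutation test of the difference, p = 0.333). None of these differences between the comparisons passed 0.05. The lowest background under any peak, a stand-in for depth, was 14.3 and 6.66 reads in the double depletion with HU and 8.44 and 10.7 reads in INO80 with HU, against 11.4 and 21.2 reads and 9.39 and 8.11 reads in the same strains without HU, and its part in these values was not tested.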

How the results depend on the processing

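The counts of regions depended most on the settings. Gained regions numbered 10 with equal list lengths, 0 with a −log10 q of at least 10, and 5 to 15 when 1 library was left out. Lost regions numbered 20 with equal list lengths, 39 with scores above the list median, 29 with a −log10 q of at least 10 and 12 outside the repeat classes, and 106 to 166 without 1 library (155 without INO80 replicate 1 and 166 without INO80 replicate 2). Shared regions numbered 51 with scores above the list median, 15 with a −log10 q of at least 10, 44 where peaks had to cover 50% of the region, 12 outside the repeat classes and 110 to 150 without 1 library. As a share of covered base pairs the difference between the strains turned to -0.828 points for Ty-length frames, 0.903 for promoters, -5.71 for gene bodies and 0.860 for Arp5 peaks. By peak midpoints it turned to 0.834 for convergent gaps and 1.49 for Arp5 peaks, with equal lists to -1.47 for gene bodies and 0.208 for convergent gaps, and outside the repeat classes to 10.4 for Arp5 peaks. Without 1 library gene bodies ranged from -1.53 to 4.64 points and convergent gaps from -1.55 to 0.594. The 5′ part of YRF1 genes turned to 3.87 points with equal lists, and tRNA genes with 500 bp on each side gave -2.31 points, both chosen after seeing the data. The cause of these changes was not tested. The number of peaks kept its direction, from -0.969 to -0.667 log2 without 1 library, -1.20 outside the repeat classes, -1.86 when long unnamed frames and repeated genes were left out as well (chosen after seeing the data) and -1.57 with a −log10 q of at least 10. With the replicate number as a block it was -0.818 (exact permutation p = 0.500, the smallest possible). Over 427 regions, replicate 1 minus replicate 2 was nearly uncorrelated between the 2 strains with HU (r = 0.0118). The pairing by replicate number thus has no support. Neither the main test nor the block could reach 0.05, so the block could change no call. Of the 154 alternative values 124 kept their direction and side of the threshold or stayed within 1.5 times a count. The side of the threshold could not change, since no test could pass 0.05. Read totals are unknown, so what depth limits cannot be told, and 2 libraries a group cannot reach 0.05.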
